A study of Mus musculus with 6 samples.

Results

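The comparison described here sets PDGFRa-only cells against double-positive cells, both sorted from mouse embryonic stem cell (ESC) cultures, so that the sorted fractions share surface PDGFRa and differ in surface PECAM1. Its members were taken from the labels: 4 of the 6 libraries of the series, 2 of each fraction, and the 13909 genes of 38561 in the count table that passed a filter on low counts. PDGFRa-only cells carry the label PECAM1minPDGFRaplus and double-positive cells PECAM1plusPDGFRaplus, while the third fraction of the series, PECAM1-only (PECAM1plusPDGFRamin), enters as a reference level and in the estimate of the spread. Every library has the same strain label, 129X1/SvJ x 129S1/Sv, and passages 13 to 17, and the labels name no transgene, deletion or drug. The cultures were kept without feeder cells on gelatin, in medium with 20% Knockout Serum Replacement and 1000 U/ml leukemia inhibitory factor (LIF). Each library was made from amplified total RNA of 100000 sorted events. Exp1 and Exp2 in the labels are replicates 1 and 2 below. Whether these are separate cultures or sorts is not said, so a p reflects no more than the spread among the 6 libraries. The question the sort poses is how PDGFRa-positive cells that have lost PECAM1 differ from those that still carry it.

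PECAM1 is an adhesion protein on the surface of endothelial cells and of undifferentiated ESCs and inner cell mass cells. PDGFRa, a receptor tyrosine kinase, is an early surface marker of primitive endoderm, the layer of the blastocyst that forms beside the pluripotent epiblast and gives rise to the visceral and parietal endoderm of the yolk sac. Primitive endoderm is set up by FGF signalling from epiblast to neighbouring cells and by the transcription factors GATA6, SOX17, GATA4 and SOX7, and its descendants take up nutrients by endocytosis and secrete a thick basement membrane. ESC cultures are known to hold some primitive endoderm-like cells among the pluripotent ones.

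The libraries held 4809661 to 7273669 counts assigned to genes, and replicates correlated at 0.977 to 0.984 on the log scale. The PDGFRa-only replicates differed from each other more than the others did: their chi-square per degree of freedom was 28.45, against 5.81 for the double-positive and 6.08 for the PECAM1-only replicates. Gm42418, a non-coding RNA annotated over a ribosomal RNA repeat, took 7.71% of the counts of PDGFRa-only replicate 1 and from 1.52% to 2.87% elsewhere. Levels below are CPM, which are counts relative to library size, here scaled by TMM factors, replicate 1 before replicate 2, and fold changes are log2 values of PDGFRa-only minus double-positive with their standard error. A gene was called higher or lower at a Benjamini-Hochberg adjusted p under 0.05 in edgeR's quasi-likelihood test over all 13909 genes.

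The sorting genes followed the labels. Pecam1 (ENSMUSG00000020717, chr11:106654217-106750628, minus strand, GRCm38) stood at 1.57 and 1.51 CPM in PDGFRa-only cells, 53.8 and 44.9 CPM in double-positive cells and 166 and 143 CPM in PECAM1-only cells. It was thus lowest where the protein had been gated out, and the double-positive libraries lay below the PECAM1-only ones without overlap. Its fold change was -4.99 ± 0.28 (adjusted p = 1.12e-10). Pdgfra (ENSMUSG00000029231, chr5:75152292-75198215, plus strand) was at 509 and 605 CPM in PDGFRa-only and at 552 and 518 CPM in double-positive cells, and at 2.04 and 1.88 CPM in PECAM1-only cells. The 2 PDGFRa-positive fractions overlapped in Pdgfra, with a fold change of 0.06 ± 0.15 (adjusted p = 0.834). In sorted bulk RNA, fewer cells of a type and less RNA per cell cannot be told apart, and this holds for every level below.

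In log2 fold change, PDGFRa-only cells differed from double-positive cells by more and larger losses than gains. A gene that falls towards 0 has no limit in log2, while one already on in double-positive cells may rise only a little. Genes nearly absent from PECAM1-only cells already stood at a median 64% of their PDGFRa-only level in double-positive cells, as described below. The sizes here are therefore not amounts of RNA. In PDGFRa-only cells 826 genes were higher (5.94% of those tested) and 1624 lower (11.7%). The gains were small: the median rise was 0.72 (middle 50% 0.61 to 0.87), 111 genes (0.798%) rose at least 2-fold and 3 genes (0.0216%) at least 4-fold. Those 3 were Gabre, a GABA-A receptor subunit, Chil1, a chitinase-like secreted protein, and Rem2, a small GTPase. The losses were large: the median fall was -1.86, 1211 genes (8.71%) fell at least 2-fold and 767 (5.51%) at least 4-fold by the fitted values. No counts were seen in either PDGFRa-only library for 163 of the genes called lower. With these set to the limit that a floor of 3 counts over the fraction allows, the median fall was -1.75, and 707 genes fell at least 4-fold and 135 at least 16-fold, against 0 genes that rose at least 8-fold.

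**Figure D1:**
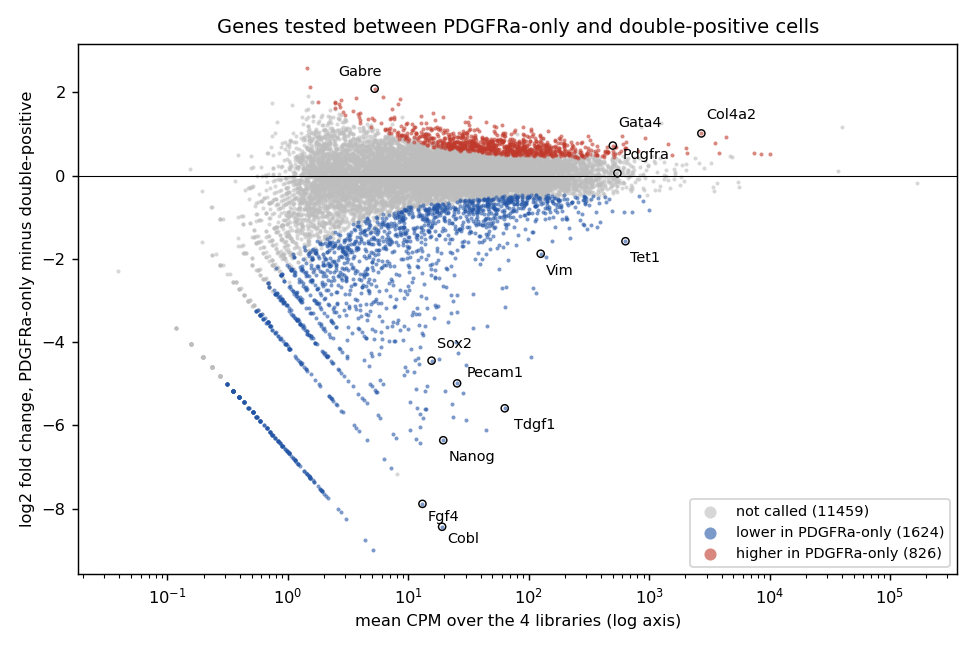
Fold change between PDGFRa-only and double-positive cells (log2, vertical axis) against the mean CPM over the 4 libraries (log axis) for the 13909 tested genes; red points are the 826 genes called higher, blue points the 1624 called lower, grey points the rest, and circles mark genes named in the text. The red cloud stays mostly below 1 log2 unit while the blue cloud reaches below -8, where genes with 0 or 1 count in PDGFRa-only cells line up on diagonals set by the counts.

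These counts depended on scaling and on single libraries, and no gene was called in the opposite direction under any alternative. Higher genes made up 33.7% of the calls with TMM factors and 21.9% with library size alone (528 higher, 1878 lower). Leaving out double-positive replicate 1 left 218 higher and 1108 lower genes, and leaving out double-positive replicate 2 left 306 and 1138. Transcript length moved with the change: among genes of at least 5 CPM, the median annotated length was 2639 bases for genes called higher, 4454 for genes called lower and 3448 for the rest. With the trend on length removed, 792 genes were higher and 1616 lower, of which 638 and 1515 were also called without that step.

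**Figure D2:**
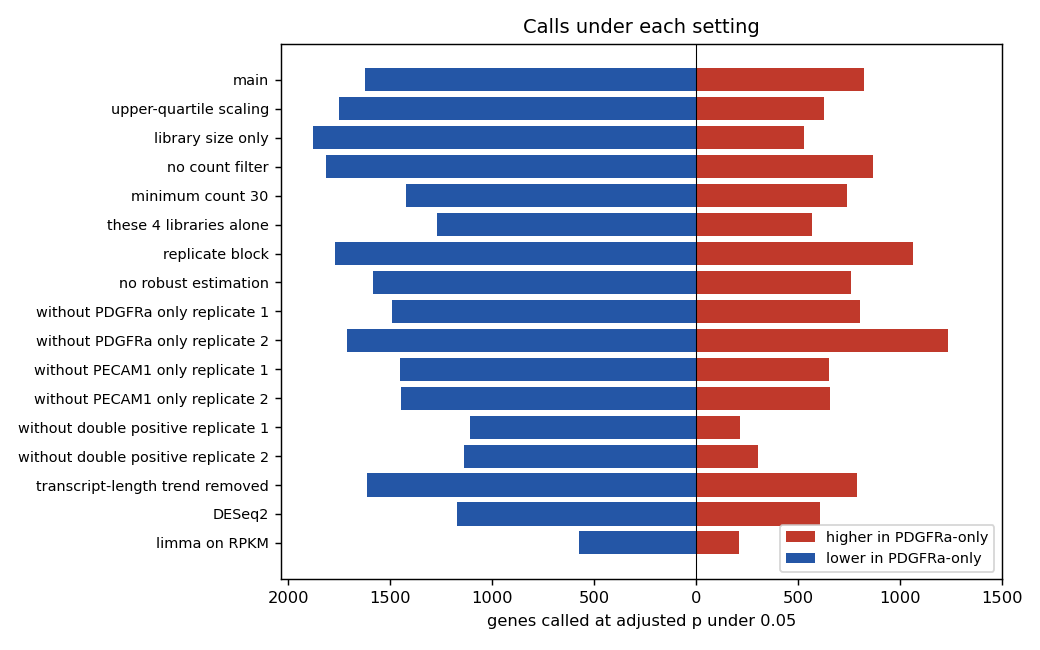
Number of genes called higher (red, to the right) and lower (blue, to the left) in PDGFRa-only cells under the reported fit (top) and 16 other settings; a test against 1.5-fold is not drawn. The lower genes outnumber the higher ones in every setting shown, and the shortest bars for higher genes are those of limma on RPKM (211) and of the fits without a double-positive library (218 and 306).

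The core pluripotency factors ranged from genes all but lost in PDGFRa-only cells to genes whose change was small and not called. Of 14 core pluripotency factors, 10 were lower and none higher, with a median of -0.90 beside a median of 0 over all tested genes. Nanog (ENSMUSG00000012396, chr6:122707489-122714633, plus strand), the homeodomain factor that holds the naive state, was at 0.449 and 0.453 CPM in PDGFRa-only cells and at 40.3 and 36.9 CPM in double-positive cells. It fell by 6.36 ± 0.36 on the log2 scale (adjusted p = 1.14e-10), to 1.17% of the double-positive level. Tdgf1, the Nodal co-receptor Cripto, stood at 3.59 and 1.81 CPM against 121 and 127 CPM (-5.59 ± 0.26, adjusted p = 1.41e-11). Sox2 (ENSMUSG00000074637, chr3:34650405-34652461, plus strand), the HMG-box partner of OCT4, was at 1.35 and 1.36 CPM against 28.2 and 31.6 CPM (-4.44 ± 0.29, adjusted p = 6.39e-10). The groups stood far apart for all 3 of these genes. Lin28b, an RNA-binding blocker of let-7 maturation, fell by 3.47, and Gdf3, a TGF-beta family ligand, fell by 3.17.

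The 4 core members that were not called had fold changes of -0.41 to -0.14, and all 14 fitted differences in the list were below 0. Pou5f1, which encodes OCT4, was at 97 and 56.5 CPM in PDGFRa-only cells, 113 and 89 CPM in double-positive cells and 144 and 132 CPM in PECAM1-only cells. Its groups overlapped (-0.41 ± 0.21, adjusted p = 0.187), but with PDGFRa-only replicate 1 left out it was called lower (-0.84, adjusted p = 0.00111). Sall4, a zinc-finger factor of both epiblast and primitive endoderm, was at 559 and 483 CPM against 624 and 521 CPM (-0.14 ± 0.16, adjusted p = 0.619). Lin28a and Trim71, an RNA-binding protein and a ubiquitin ligase of the let-7 pathway, had fold changes of -0.24 ± 0.15 and -0.26 ± 0.16 (adjusted p = 0.312 and 0.296). The remaining core calls were smaller falls, from -1.35 for Utf1 to -0.78 for Dppa4. Dppa2, Dppa4 and L1td1 lost their calls without double-positive replicate 1 (adjusted p = 0.221, 0.384 and 0.165) and without PDGFRa-only replicate 2 (adjusted p = 0.115, 0.144 and 0.128). L1td1 also lost its call without PDGFRa-only replicate 1 (adjusted p = 0.104).

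Naive and post-implantation epiblast genes were lower together, although the lists name successive stages. Of 19 naive genes, 12 were lower and 1 higher (median -1.63, or -1.45 with genes at 0 counts set to their limit). Nr5a2, a nuclear receptor that binds Pou5f1 control regions, was at 0.449 and 0 CPM against 12.9 and 8.92 CPM, a ratio of 60.4 (95% counting interval 16.4 to 503.5). Jam2, a junctional adhesion molecule, fell by 2.45 ± 0.26 and Zfp42 (Rex1) by 1.71 ± 0.22. Zfp57, which guards imprints, fell by 1.65 ± 0.18. Klf4, Klf5 and Tbx3, named after their values were seen, were not called, at 0.26, 0.20 and 0.20. The member that rose was Tdh, threonine dehydrogenase, at 127 and 150 CPM against 85 and 81.4 CPM (0.74 ± 0.18, adjusted p = 0.00608), a call lost without double-positive replicate 2 (0.70, adjusted p = 0.0566). Of 13 post-implantation genes, 7 were lower and none higher (median -2.02). Otx2, a homeodomain factor of the primed epiblast, was at 0.224 and 0.755 CPM against 34.5 and 20.3 CPM (-5.61 ± 0.44, adjusted p = 1.31e-08, and -6.81 without PDGFRa-only replicate 2). Lef1, a Wnt effector, was at 0.898 and 1.21 CPM against 43.4 and 36 CPM (-5.17 ± 0.31, adjusted p = 3.87e-10).

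**Figure D3:**
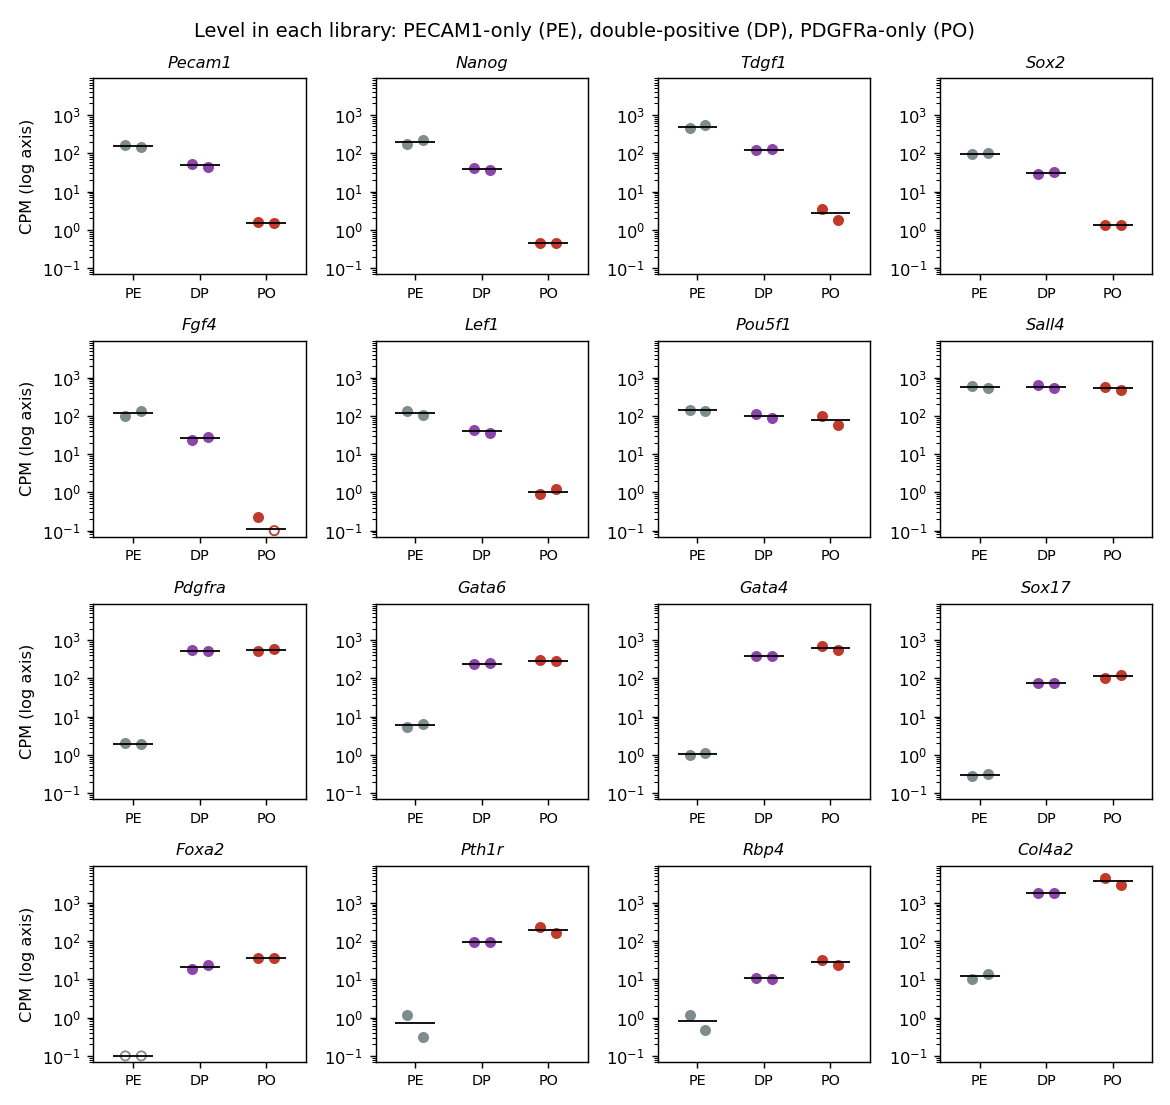
CPM on a log axis in each library of the PECAM1-only (PE), double-positive (DP) and PDGFRa-only (PO) fractions for 16 genes; points are libraries, bars their means, and open points are libraries with 0 counts, drawn at 0.1. Pecam1, Nanog, Tdgf1, Sox2, Fgf4 and Lef1 step down from PE to DP and again to PO, Pou5f1 and Sall4 stay within a narrow range, and the endoderm genes step up most between PE and DP.

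The primitive endoderm transcription factors were already on in double-positive cells and were, in part, modestly higher in PDGFRa-only cells. Of 19 tested, 8 rose and none fell (median 0.56). The fitted difference was above 0 in 16 of them and below 0 in 3, the lowest at -1.28. Gata4 (ENSMUSG00000021944, chr14:63198922-63271692, minus strand), a zinc-finger factor of the endoderm, was at 698 and 548 CPM in PDGFRa-only cells and at 375 and 379 CPM in double-positive cells, against 1.02 and 1.1 CPM in PECAM1-only cells. Its rise of 0.72 ± 0.16 (adjusted p = 0.00309) kept its call without each library in turn. Gata6, which starts the programme, was at 301 and 284 CPM against 238 and 249 CPM, and 5.39 and 6.59 CPM in PECAM1-only cells. Its 4 libraries did not overlap between the fractions, as in 27.3% of all tested genes with PDGFRa-only higher, and the difference of 0.27 ± 0.15 did not pass the test (adjusted p = 0.246). Sox17, an HMG-box factor that acts beside GATA6, was at 104 and 121 CPM against 75.5 and 76.5 CPM (0.57 ± 0.17, adjusted p = 0.0222), and Sox7, its relative, at 284 and 226 CPM against 164 and 175 CPM (0.58 ± 0.17, adjusted p = 0.019). Foxa2, a forkhead factor, was at 35.7 and 35.5 CPM against 18.1 and 23 CPM (0.79 ± 0.22, adjusted p = 0.0168). Cited1, Creb3l2 and Foxq1 rose by 0.89, 0.56 and 1.30.

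Most of these calls needed both double-positive libraries. Without double-positive replicate 1 the list held 1 higher gene, and without replicate 2 it held 3. Sox17, Sox7 and Foxa2 kept their direction without replicate 1 but not their calls (0.55, 0.54 and 0.62, adjusted p = 0.156, 0.156 and 0.223). Cited1, Creb3l2 and Foxq1 likewise lost theirs (adjusted p = 0.145, 0.106 and 0.207). Without double-positive replicate 2, Sox17, Sox7, Creb3l2 and Foxq1 were not called (adjusted p = 0.132, 0.0837, 0.142 and 0.196). PDGFRa-only replicate 1 decided Foxq1, whose levels of 91.1 and 34.3 CPM in that fraction lay far apart and whose rise without that library was 0.45 (adjusted p = 0.206). It also decided Sox7 and Creb3l2 (adjusted p = 0.0815 and 0.0674), and without replicate 2 Sox17 was not called (adjusted p = 0.0804). Foxq1 was not called without either PECAM1-only library (adjusted p = 0.0738 and 0.0718), since these share in the estimate of the spread.

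Most tested parietal endoderm genes were called higher and a smaller share of the visceral endoderm genes, although the list medians were alike (0.71 and 0.68). Of 18 parietal endoderm genes, the layer that lines the yolk cavity, 13 rose and 1 fell (median 0.71). Pth1r, the receptor for parathyroid hormone-related peptide and a classical marker of the parietal fate, was at 228 and 161 CPM against 93.8 and 91.7 CPM (1.07 ± 0.19, adjusted p = 0.00046). Krt18 and Krt8, the paired keratins of simple epithelia, rose by 1.00 ± 0.20 and 0.84 ± 0.19. The list's single fall was Vim, the filament protein vimentin, at 53.7 and 54.2 CPM against 195 and 201 CPM (-1.87 ± 0.16, adjusted p = 3.07e-08). Of 21 visceral endoderm genes only 12 had counts enough to be tested. Of these 12, 4 rose and 1 fell (median 0.68), with 10 differences above 0, and 7 were called higher with a replicate block. Rbp4, the retinol carrier, was at 32.8 and 23.3 CPM against 10.9 and 10.2 CPM (1.40 ± 0.26, adjusted p = 0.000657), and Spink1, a trypsin inhibitor, at 77.5 and 66 CPM against 26 and 36.8 CPM (1.19 ± 0.20, adjusted p = 0.000307). Lefty1, a Nodal antagonist, was the member that fell, by 2.41 ± 0.66, and was not called without PDGFRa-only replicate 1 (-1.65, adjusted p = 0.0545) or double-positive replicate 2 (-1.99, adjusted p = 0.104). Afp, the alpha-fetoprotein of mature visceral endoderm, had 8 counts in PDGFRa-only and 4 in double-positive cells and was not tested. The parietal list held 6 higher genes without double-positive replicate 1, 8 without replicate 2 and 8 with library size as the only scaling, and the visceral list 7 without PDGFRa-only replicate 1. Krt18 then lost its call in the first case (0.71, adjusted p = 0.0541) and Krt8 in the second (0.68, adjusted p = 0.0865).

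Basement membrane genes went both ways, with the embryonic laminin and collagen IV chains higher and another set of matrix genes lower. Of 20 tested, 10 rose and 4 fell (median 0.44). Col4a2, a collagen IV chain and the most abundant gene to rise at least 2-fold, was at 4407 and 2866 CPM against 1784 and 1813 CPM, and at 10.5 and 13.6 CPM in PECAM1-only cells (1.02 ± 0.19, adjusted p = 0.000799). With limma on the deposited RPKM values its fold change was 0.0 and it was not called. Lama1, Lamb1 and Lamc1, the chains of laminin-111, named after their values were seen, rose by 0.56, 0.54 and 0.52 (adjusted p = 0.0417, 0.037 and 0.0376). The genes that fell were Frem2, a Fraser complex protein, Col18a1, the collagen that holds endostatin, Lama5, the laminin chain of adult epithelia, and Fn1, fibronectin. Col18a1 was at 1.12 and 1.51 CPM against 19.7 and 27.7 CPM (-4.11 ± 0.34, adjusted p = 1.85e-08). Lama5 fell by 1.88 ± 0.20 and Fn1 by 1.19 ± 0.18, and all 4 were higher still in PECAM1-only cells. Without double-positive replicate 1 or 2 the list held 3 higher genes and 4 lower ones, and with library size as the only scaling it held 5 higher genes.

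The enzymes that fold and export such matrix were higher as well, and no member of their lists fell. Of 16 collagen folding enzymes 8 rose, and the fitted difference was above 0 in 16 of 16 (median 0.59). Serpinh1, the collagen chaperone HSP47, was at 1278 and 1127 CPM against 625 and 651 CPM (0.92 ± 0.19, adjusted p = 0.00174), and Plod3, a lysyl hydroxylase, at 293 and 279 CPM against 158 and 167 CPM (0.81 ± 0.15, adjusted p = 0.00075). Serpinh1 was not called with limma on the deposited RPKM values (0.25, adjusted p = 0.611). Of 20 genes of the unfolded protein response and secretory pathway, 7 rose (median 0.48). Sec61b, a subunit of the translocon, was at 47.4 and 41.8 CPM against 22.8 and 17.8 CPM (1.13 ± 0.21, adjusted p = 0.000671). Hspa5, the chaperone BiP, named after its value was seen, stood at -0.04. The folding list held 2 higher genes without double-positive replicate 1 and 5 without replicate 2, and 12 and 4 without PDGFRa-only replicates 1 and 2. The secretory list held 2 without either double-positive library.

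Lysosomal genes were higher, while the large endocytic receptors did not pass the test. Of 26 lysosomal genes 15 rose and none fell, and 26 of 26 differences were above 0 (median 0.51). Ctsz, a cathepsin, was at 373 and 443 CPM against 204 and 217 CPM (0.95 ± 0.16, adjusted p = 0.000311), and Hexa, a hexosaminidase subunit, at 242 and 228 CPM against 131 and 123 CPM (0.89 ± 0.17, adjusted p = 0.00107). Without double-positive replicate 1 there were 6 such calls and without replicate 2 there were 8. Of 15 endocytic genes, 4 rose and 1 fell (median 0.47). Amn, the anchor of cubilin, was at 83.1 and 65.1 CPM against 31.9 and 33.6 CPM (1.17 ± 0.21, adjusted p = 0.000383), and Clu, a secreted chaperone, at 854 and 702 CPM against 381 and 427 CPM (0.95 ± 0.16, adjusted p = 0.000232). Cubn, Lrp2 and Dab2, the receptors cubilin and megalin and their adaptor, named after their values were seen, differed by 0.45, 0.30 and 0.43 (adjusted p = 0.0715, 0.255 and 0.0894). Lrp1, a broad lipoprotein receptor, fell from 36.7 and 53.2 CPM to 5.61 and 6.65 CPM (-2.85 ± 0.25, adjusted p = 6.75e-08). The endocytic list held 10 higher genes without PDGFRa-only replicate 1, 2 without double-positive replicate 1, and 9 with the length trend removed.

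**Figure D4:**
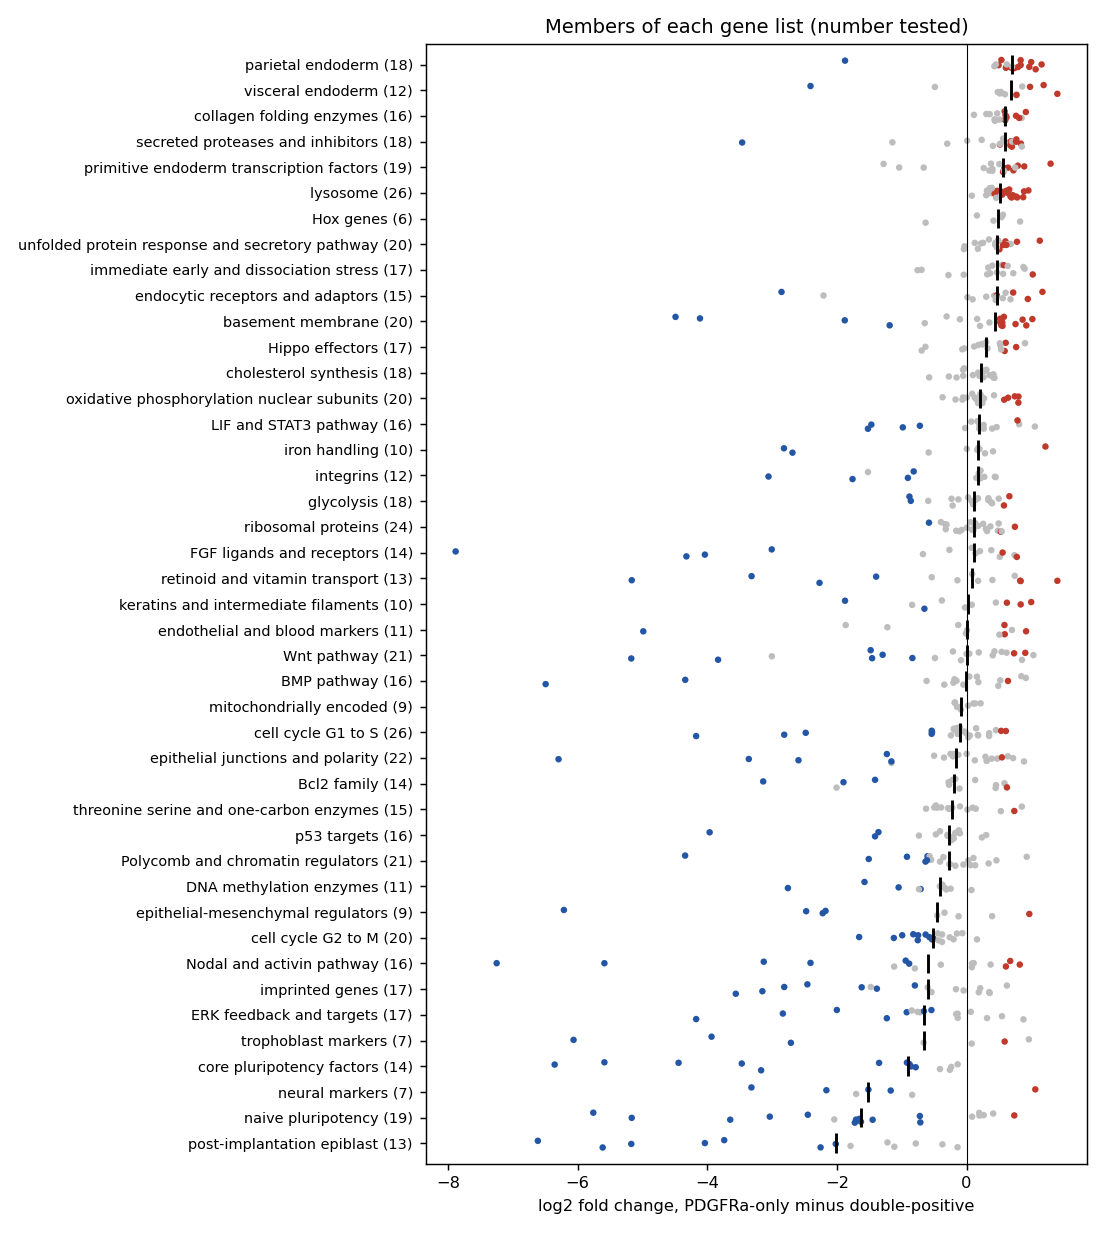
Fold change of each tested member (points) of the gene lists with at least 6 tested members, ordered by the list median (black bar); red marks genes called higher in PDGFRa-only cells, blue genes called lower, grey the rest, with the number tested in parentheses. The endoderm, folding and lysosome lists cluster between 0 and about 1, whereas the epiblast and pluripotency lists spread down to below -6.

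In FGF signalling 3 ligands and the receptor Fgfr1 were lower. Of 14 tested genes 4 fell and 2 rose (median 0.11). Fgf4, the ligand by which epiblast cells direct their neighbours to endoderm, was at 0.224 and 0 CPM in PDGFRa-only cells, 24.1 and 28.2 CPM in double-positive cells and 102 and 135 CPM in PECAM1-only cells. With 1 count against 333, the ratio was 289.3, with a 95% counting interval of 51.6 to 11460. Fgf1 was 22.1-fold lower by the same measure (5.83 to 187.9) and Fgf15 19.98-fold (3.25 to 823.2), the latter not called without PDGFRa-only replicate 2 (adjusted p = 0.0624). Fgfr1, the receptor shared by epiblast and endoderm, fell from 41.4 and 42.1 CPM to 4.04 and 6.04 CPM (-3.01 ± 0.23, adjusted p = 9.95e-09). Fgfr2, the receptor characteristic of the endoderm, named after its value was seen, did not pass the test (0.08 ± 0.17, adjusted p = 0.797). Fgfr4 and Klb, a receptor and the co-receptor beta-klotho, rose by 0.78 ± 0.23 and 0.56 ± 0.17, but were not called without double-positive replicate 1 (adjusted p = 0.224 and 0.125) or replicate 2 (adjusted p = 0.0655 and 0.172). Klb was not called without PDGFRa-only replicate 2 either (adjusted p = 0.0961).

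Readouts of the ERK pathway downstream of FGF were lower. Of 17 feedback regulators and targets, 7 fell and none rose (median -0.66). Etv5, an ETS factor that ERK induces, was at 14.8 and 18 CPM against 69.7 and 62.7 CPM (-2.0 ± 0.19, adjusted p = 1.56e-07), and Spred1, an inhibitor of the pathway, at 18.9 and 19 CPM against 43.1 and 45.8 CPM (-1.23 ± 0.19, adjusted p = 0.0001). Ccnd1, cyclin D1, fell from 18.1 and 22.1 CPM to 1.8 and 0.604 CPM (-4.17 ± 0.38, adjusted p = 8.96e-08), or by 5.01 and 3.47 without PDGFRa-only replicates 1 and 2. Ccnd2, its paralogue, rose by 0.61 ± 0.18 (adjusted p = 0.0202), and was not called without double-positive replicate 1 (0.39, adjusted p = 0.35). Among the PDGF genes Pdgfc, a ligand, had no counts in PDGFRa-only and 29 in double-positive cells, at least 8.4-fold lower by the floor of 3 counts. Pdgfa, the main ligand of PDGFRa, was at 11.7 and 9.22 CPM against 15.3 and 16.1 CPM (-0.60 ± 0.24, adjusted p = 0.0912), and Pdgfrb at 1.57 and 2.72 CPM against 1.57 and 2.03 CPM (0.29 ± 0.54, adjusted p = 0.756).

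The ligand genes Nodal, Inhbb, Bmp4 and Bmp7 were lower, while Bmp2 and 3 genes of the Nodal list were higher. Of 16 Nodal and activin genes, 6 fell and 3 rose (median -0.60). Nodal itself was at 2.24 and 1.06 CPM against 14.2 and 13.3 CPM (-3.13 ± 0.34, adjusted p = 1.04e-06), and Inhbb, an activin subunit, had 0 counts against 39, at least 11.3-fold lower. Pmepa1, an inhibitor of SMAD signalling, Fst, the activin-binding follistatin, and Furin, a convertase that cleaves the Nodal precursor, rose by 0.67, 0.61 and 0.82. None of these 3 was called without double-positive replicate 1 (adjusted p = 0.0538, 0.0808 and 0.0546) or replicate 2 (adjusted p = 0.0581, 0.192 and 0.0841), and Fst and Furin were not called without PDGFRa-only replicate 1 (adjusted p = 0.194 and 0.133). The Nodal list held 3 lower genes without double-positive replicate 2. Of 16 BMP genes, Bmp4 fell by 4.34 ± 0.58 (-3.70 without double-positive replicate 1), Bmp7 had 0 counts against 23 and was at least 6.66-fold lower, and Bmp2 rose by 0.64 ± 0.21. Bmp2 did not pass the test without double-positive replicate 1 (0.64, adjusted p = 0.188), double-positive replicate 2 (0.63, adjusted p = 0.183) or PDGFRa-only replicate 1 (0.57, adjusted p = 0.0865). The BMP list thus held 2 lower genes and 1 higher gene of 16, near the shares of all tested genes (11.7% and 5.94%). Its median was 0.

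In the Wnt and LIF lists falls outnumbered the few rises, which stand beside 5.94% of all tested genes. Of 21 Wnt genes 6 fell and 2 rose (median 0). Besides Lef1, described above, Tcf7, its relative, fell by 1.48 ± 0.24 and Fzd5, a receptor, by 1.46 ± 0.18. Tcf7l2 was at 177 and 155 CPM against 82.1 and 117 CPM (0.73 ± 0.18, adjusted p = 0.00655), and Frzb, a secreted Wnt inhibitor, at 30.3 and 31.1 CPM against 12 and 20.8 CPM (0.91 ± 0.25, adjusted p = 0.0177). Neither rise was called without double-positive replicate 1 (0.49 and 0.56, adjusted p = 0.196 and 0.311). Of 16 LIF and STAT3 genes 4 fell and 1 rose (median 0.20). Socs2, a STAT-induced feedback inhibitor, fell by 1.47 ± 0.27 (adjusted p = 0.000618). Osmr, the oncostatin M receptor, was the member that rose (0.79 ± 0.27, adjusted p = 0.048), and with any single library left out other than PDGFRa-only replicate 2 it was not called (adjusted p = 0.06 to 0.316). The LIF list held 2 lower genes without double-positive replicate 2.

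Some genes of epithelial junctions and some regulators of the epithelial state were lower. Of 22 junction and polarity genes, 5 fell and 1 rose (median -0.16). Cdh3, P-cadherin, was at 0.224 and 1.06 CPM against 6.45 and 8.61 CPM (-3.36 ± 0.46, adjusted p = 2.44e-05, and -4.95 without PDGFRa-only replicate 2), and Pkp2, a desmosomal plakophilin, at 3.59 and 4.08 CPM against 21.4 and 25.5 CPM (-2.59 ± 0.26, adjusted p = 2.98e-07). Of 9 regulators of the epithelial-mesenchymal transition 4 fell and 1 rose (median -0.45), and those that fell included factors that hold either state. Grhl3, an epithelial factor, had 2 counts against 189, a ratio of 82.1 (22.4 to 682.9), and Zeb1, a repressor of epithelial genes, fell from 36 and 38.3 CPM to 9.43 and 7.25 CPM (-2.18 ± 0.22, adjusted p = 3.38e-07). Snai1, a repressor switched on as parietal endoderm forms, was at 57.5 and 37.8 CPM against 20 and 28.3 CPM (0.97 ± 0.24, adjusted p = 0.00689), and was not called without double-positive replicate 1 (0.74, adjusted p = 0.124) or PDGFRa-only replicate 1 (0.65, adjusted p = 0.0565).

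A number of late cell cycle and chromatin genes were lower. Of 20 G2 and M phase genes 11 fell and none rose (median -0.52). Top2a, the replication-linked topoisomerase, was at 626 and 804 CPM against 1290 and 1238 CPM (-0.82 ± 0.17, adjusted p = 0.00159), and Nusap1, a spindle protein, at 26.9 and 27.2 CPM against 81.8 and 89 CPM (-1.66 ± 0.17, adjusted p = 6.02e-07). Mki67, the proliferation marker Ki-67, named after its value was seen, stood at -0.06. This list held 6 lower genes without either double-positive library and 7 without PDGFRa-only replicate 1. Of 11 DNA methylation genes 4 fell (median -0.41), and Tet1, a 5-methylcytosine dioxygenase, was at 315 and 325 CPM against 987 and 918 CPM (-1.57 ± 0.16, adjusted p = 5.69e-07). Of 21 Polycomb and chromatin regulators 6 fell (median -0.26), among them Jarid2, a cofactor of PRC2, from 373 and 284 CPM to 121 and 110 CPM (-1.51 ± 0.20, adjusted p = 1.51e-05). The Polycomb list held 3 lower genes without double-positive replicate 1. Msh6, Rif1 and Mdn1, genes of mismatch repair, replication timing and ribosome assembly, were among the 10 most abundant genes to fall at least 2-fold, by 1.15 to 1.26.

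Several imprinted genes and 2 iron genes also had large falls. Of 17 imprinted genes 7 fell and none rose (median -0.60), among them Mest, a paternally expressed hydrolase, from 95.8 and 134 CPM to 8.98 and 16.2 CPM (-3.15 ± 0.23, adjusted p = 5.36e-09). Slc38a4, an amino acid transporter, fell by 1.62 ± 0.17. Of 10 iron genes 2 fell, 1 rose and 7 were not called (median 0.17), beside 11.7% lower and 5.94% higher among all tested genes. Tfrc, the transferrin receptor, fell from 113 and 111 CPM to 19.8 and 15.4 CPM (-2.69 ± 0.18, adjusted p = 1.47e-09). Steap3, the endosomal ferrireductase, fell by 2.82 ± 0.40, and Mt1, a metallothionein, rose by 1.22 ± 0.26. The largest fitted falls at 5 CPM or more were of Prmt8, an arginine methyltransferase with 0 counts against 131 (at least 37.9-fold lower), and of Cobl, an actin nucleator with 1 count against 486 (ratio 422.2, 75.4 to 16710). At 5 CPM or more the largest rises were of Gabre, at 10.8 and 6.34 CPM against 1.42 and 2.5 CPM (2.09 ± 0.43, adjusted p = 0.00178), Scand1, a SCAN domain protein (1.89 ± 0.44, not called without double-positive replicate 1, adjusted p = 0.0608), and Fam219a (1.84 ± 0.32).

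The levels of the double-positive cells were read against both single-positive fractions in genes chosen without them. In 557 genes of at least 5 CPM in PECAM1-only cells and under 10% of that in PDGFRa-only cells, the double-positive level was a median 33.3% of the PECAM1-only level (middle 50% 27.8% to 39.5%). In 497 genes chosen the other way round, it was a median 64% of the PDGFRa-only level (57.1% to 71%). Cells that each hold an intermediate level and a mixture of cells with full levels cannot be told apart in these libraries.

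**Figure D5:**
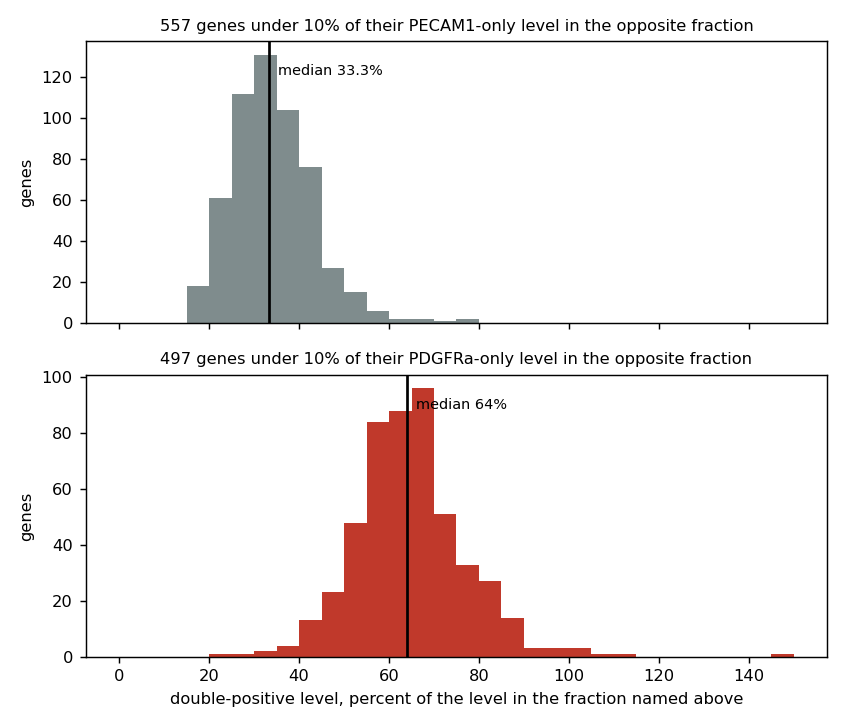
Distribution over genes of the double-positive level as a percentage of the level in PECAM1-only cells (upper panel, 557 genes nearly absent from PDGFRa-only cells) or in PDGFRa-only cells (lower panel, 497 genes nearly absent from PECAM1-only cells); the vertical lines are the medians, 33.3% and 64%, and values above 150% are drawn in the last bin. Both distributions have 1 peak, and the upper one lies to the left of the lower one.

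A few genes, named after their values were seen, departed from this pattern. Fbp2, a fructose bisphosphatase, was highest in double-positive cells, at 87.6 and 79 CPM, against 34.1 and 46.5 CPM in PDGFRa-only and 2.18 and 4.08 CPM in PECAM1-only cells (-1.04 ± 0.20, adjusted p = 0.00117). Fbp1, its paralogue, had 0 counts in PDGFRa-only cells against 3.15 and 2.97 CPM in double-positive and 0.291 and 0.941 CPM in PECAM1-only cells. Pramel7, a gene of the earliest pluripotent cells, was at 28.8 and 23.9 CPM in double-positive cells, above both 10.6 and 9.22 CPM in PDGFRa-only and 10.3 and 6.59 CPM in PECAM1-only cells.

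The size of the step from double-positive to PDGFRa-only was then tested against that from PECAM1-only to double-positive, a contrast in which both steps share the double-positive libraries. The second step was below the first, that is, more negative or less positive, in 1185 genes (8.52%) and above it in 4 (0.0288%). Both steps are log2 differences. A double-positive level midway in CPM between the single-positive levels lies above their midpoint in log2, so such a gene tends to count as below. The excess of genes below, and a larger fall in the second step, therefore cannot be told apart from this effect of the scale. The 4 were Slc28a1, Slirp, Tcf15 and U2af1, of which Slirp and U2af1 were also higher in PDGFRa-only cells (0.0144% of genes tested), and without PDGFRa-only replicate 2 there were 97. Of the 1624 genes lower in PDGFRa-only cells, 207 (1.49% of all tested) had the second step below the first, among them Pecam1, Nanog, Tdgf1, Sox2, Fgf4, Lef1, Otx2 and Vim. Such a gene either fell by more in the second step or rose in the first and then fell. Among all 1624, the PECAM1-only mean lay below the double-positive mean in 44. Of the 1185 genes, 353 (2.54% of all tested) were higher in PDGFRa-only cells and had risen by more in the step before. For the other 1417 genes called lower, a difference between the steps was not detected.

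Among markers of other cell types that the gates could hold, those of endothelium and blood summed to a higher level in PDGFRa-only cells, though most tested ones were not called. The mesoderm markers were near 0. Of 19 endothelial and blood markers besides Pecam1, Ptprc, Erg and Emcn were at 0 counts in all 4 libraries, and the summed level was 464.7 to 597.6 CPM in PDGFRa-only, 358.5 to 363.2 CPM in double-positive and 59.7 to 61.5 CPM in PECAM1-only cells. Of 11 tested with Pecam1 included, 3 rose, Pecam1 fell and 7 were not called (median 0.01), with 6 differences above 0 and 5 below. Flt1, a VEGF receptor, Runx1, a transcription factor, and Esam, an adhesion molecule, were the 3 that rose, by 0.59, 0.59 and 0.92. Without double-positive replicate 1 Flt1 and Esam were not called (adjusted p = 0.269 and 0.156), and Runx1 was not called without replicate 2 (adjusted p = 0.274) or PDGFRa-only replicate 1 (adjusted p = 0.273). Of 16 trophoblast markers Prl3d1 and Tpbpa were at 0, and the sum was 199.6 to 244.3 CPM against 195.9 to 196.4 CPM. The sum hides members that went both ways: of 7 tested, 3 fell and 1 rose (median -0.66). The 13 fibroblast markers summed to 14.1 to 31.1 CPM against 23.6 to 38.6 CPM. Of 10 gastrulation mesoderm markers T, Gsc, Evx1 and Fgf8 were at 0 and none was tested, with a sum of 1.12 to 1.66 CPM against 1.56 to 2.36 CPM. Of 12 neural markers 4 fell and Nefl, a neurofilament, rose from 46.7 and 51.6 CPM to 123 and 82.6 CPM (1.06 ± 0.20, adjusted p = 0.000657), with a sum of 95.3 to 141.7 CPM against 84.8 to 99 CPM. The 9 2-cell-like markers summed to 178.7 to 338.8 CPM against 367.2 to 414.8 CPM. Nearly all of this was Eif1a, the only member tested, which was not called (-0.59). It was at 178.2 and 338.4 CPM against 413.1 and 366.8 CPM. The other members had at most 13 counts each over the 6 libraries. Stress could also move with a sort: of 17 immediate early and dissociation genes 2 rose and none fell (median 0.47), and Jun was at 29.6 and 40.6 CPM against 13.1 and 21.7 CPM (1.02 ± 0.27). That list held 4 higher genes without PDGFRa-only replicate 1, none without double-positive replicate 1 and 3 without replicate 2. Jun was not called without double-positive replicate 1 (0.69, adjusted p = 0.184) or PDGFRa-only replicate 2 (0.76, adjusted p = 0.0677). The part of these markers in the other differences was not tested.

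Promoters of the changed genes were searched for short words that pluripotency and endoderm factors are known to read. The window ran from 250 bases before to 50 after the first listed start in RefSeq (build GRCm38.p6), and 9975 tested genes matched it by symbol. The octamer ATGCAAAT, searched on both strands, is the word of POU factors such as OCT4. It was in 1.36% of all tested promoters, 0.779% of those of genes called higher and 2.49% of those called lower. The share was 3.62% (20 of 552) of those at least 4-fold lower by the fitted values and 2.78% (6 of 216) of those at least 16-fold lower. A GATA word was counted as AGATAA or the form AGATAG, and with T in first place as TGATAA or the form TGATAG, on both strands. Such a word was in 18% of all tested promoters, 17.6% of those called higher and 24.7% (19 of 77) of those at least 2-fold higher, beside 17.3% of those called lower. In the whole table of 27025 promoters, the shares were 1.75% and 30.2%. A match is a description of the letters and not a binding site.

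Shown to make these words concrete are stretches upstream of the 3 most abundant genes in double-positive cells that were at least 4-fold lower and held an octamer, among stretches free of annotated exons. Each is written 5′ to 3′ on the gene's strand with each octamer, or its reverse complement, in capitals. Chchd10, a mitochondrial protein, was at 20.7 and 12.2 CPM against 95.5 and 113 CPM (-2.70 ± 0.27). Stox2, a winged-helix factor, fell by 2.33 ± 0.26, and Gse1, a co-repressor subunit, by 3.27 ± 0.32. The stretches lie at chr10:75933020-75933081 (plus strand), chr8:47352354-47352415 (minus strand) and chr8:120488711-120488772 (plus strand).
Chchd10: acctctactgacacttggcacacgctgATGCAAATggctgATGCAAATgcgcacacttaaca
Stox2: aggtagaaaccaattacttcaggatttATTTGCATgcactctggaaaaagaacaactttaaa
Gse1: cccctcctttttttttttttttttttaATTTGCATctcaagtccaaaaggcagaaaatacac

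For the GATA words, the stretches are those of the 3 genes of at least 5 CPM with the largest rises that held one, again with the word or its reverse complement in capitals. They lie at chr2:156312726-156312785, chr4:41569628-41569687 and chr17:35643783-35643842, all on the minus strand. Scand1 and Fam219a are described above, and Mucl3, a mucin-like gene, was at 23.8 and 13.4 CPM against 6.92 and 6.57 CPM (1.44 ± 0.30, adjusted p = 0.00201).
Scand1: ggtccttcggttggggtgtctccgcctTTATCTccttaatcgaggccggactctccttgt
Fam219a: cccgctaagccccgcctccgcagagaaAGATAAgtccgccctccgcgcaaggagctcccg
Mucl3: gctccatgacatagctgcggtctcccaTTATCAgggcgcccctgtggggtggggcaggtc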

How the data were processed

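Flow-sorted fractions of mouse ESC cultures were profiled by RNA sequencing after NuGEN amplification, 2 libraries a fraction. The authors deposited a table of raw counts per gene and a table of RPKM values. Per the submitters' processing notes, cutadapt 1.2.1, Bowtie2 2.1.0, TopHat2 2.0.8b, HTSeq 0.5.4p3 and build GRCm38 were named, and how the RPKM values were made is not given in the sources used here. The deposited RPKM columns share 1 maximum, and they entered only an alternative, as log2(value + 1). Whether the counting used strand is not stated, so overlapping and antisense genes could share reads.

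Counts were tested with edgeR 4.0.16 (R 4.3.3; filterByExpr with a minimum count of 10, TMM, robust quasi-likelihood fit, two-sided, Benjamini-Hochberg). All 6 libraries entered the fit with 1 mean per fraction, which leaves 3 residual degrees of freedom, and the biological coefficient of variation was 13.5%. The code was tested on simulated counts. A standard error is the fold change divided by the square root of F. A fold against 0 counts is a bound from a floor of 3 counts summed over the fraction, and with 1 to 3 counts the ratio of the fractions' CPM, from summed counts, has a 95% exact counting interval; both cover counting error only. Positions and lengths are from GENCODE M21 and promoter sequences from RefSeq.

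The members and the 47 gene lists were chosen with earlier results of these data known, so a list is described by its counts and median, and no list was tested as a set. The genes named are the sorting genes, all core pluripotency, primitive endoderm and PDGF members, the 10 largest rises and falls at 5 CPM or more without overlap, the 10 most abundant called genes of at least 2-fold each way, and in other lists the 4 members of smallest p with those called in the rarer direction. Others are said to be named after their values were seen, and some genes that the rule names are not reported here. Same-numbered replicates deviated together in no regular way (correlations 0.183, -0.0289 and 0.132), so the fit has no replicate block. DESeq2 1.42.0 and limma 3.58.1 gave alternatives.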

Additional observations from a re-analysis of the deposited data

How the results depend on the processing

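None of the 192 named calls was made in the opposite direction in any alternative, and 89 of them held in every alternative that gave a value. The count of higher genes fell from 826 to 528 with library size alone. Limma on the deposited RPKM values gave 211 higher and 574 lower genes. It kept 99 of the 192 named calls and lost 93, in both directions. Among those lost were the rises of Col4a2, Serpinh1, Pth1r, Krt8, Krt18, Hexa, Sox17, Sox7 and Foxa2. A test against 1.5-fold gave 27 higher and 875 lower genes. In it the primitive endoderm factor, basement membrane, collagen folding and lysosome lists held 0 higher genes. Leaving out each library in turn gave 218 to 1235 higher and 1108 to 1710 lower genes, with the low ends when a double-positive library was left out, which leaves 1 library assumed to vary like the others. DESeq2 called 609 higher and 1173 lower genes. With a replicate block there were 1065 higher and 1769 lower genes, and all 192 named calls were kept.

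Genes whose second step lay above the first numbered 4, and 10 with upper-quartile scaling, 11 with library size alone, 9 without a count filter, 9 with the replicate block and 2 with DESeq2. Leaving out each library in turn gave 1 to 97. Genes whose second step lay below the first numbered 1185, and 769 to 1559 on leaving out each library. The test of steps was not run on the 4 libraries alone or on RPKM. With 4809661 to 7273669 counts, a gene with 0 counts in 1 library could be present at up to 0.437 to 0.673 CPM. The deposited RPKM and count fits agreed in sign for 12083 of 13909 genes.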
